A study of Rattus norvegicus with 3 samples.

Results

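The genes described here encode the enzymes that lithium inhibits directly and the beta-catenin branch that 1 of these enzymes controls, namely Gsk3a, Gsk3b, Impa1, Ctnnb1, Apc and Wnt4. Their members are the probes that the array annotation gives a single one of these 6 symbols, which are 7 of the 5760 probes on the array and cover 6 of its 4390 named genes. Impa1 had 2 probes, and each of the other genes had 1. Rat kidney inner medulla was compared on 3 dual-colour spotted arrays between rats treated with lithium for 1 month and control rats. Lithium RNA was in the red channel (channel 1) and control RNA in the green channel (channel 2) on every array, so dye and treatment cannot be told apart. Arrays 1 and 2 carried RNA of 2 rats per channel, and array 3 carried RNA of 1 rat per channel. Strain, age, sex and dose were not given in the labels used here. Since the rats are numbered differently on each array, array-to-array spread takes in the variation among animals or pools.

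Glycogen synthase kinase 3 exists as the alpha and beta isoforms encoded by Gsk3a and Gsk3b, and lithium inhibits both. In the absence of a Wnt signal the kinase works in a destruction complex with the scaffold proteins APC and axin, where it phosphorylates beta-catenin (Ctnnb1) and so marks it for degradation. Wnt ligands such as Wnt4 can release this brake, and beta-catenin then enters the nucleus. A separate part of beta-catenin is bound to cadherins at cell junctions. Inositol monophosphatase (Impa1), a separate target that lithium inhibits, recycles inositol phosphates to free inositol. In the kidney, lithium enters collecting duct cells, where inhibition of the kinase is linked to the loss of urine concentration. Arrays of this kind measure transcripts and therefore not enzyme activity or phosphorylation.

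The deposited value was a log ratio whose base and direction were not stated. Ratios above 0 were read as higher with lithium, an assumption that rests only on lithium being named as channel 1. It was not tested against genes of known response. If the ratios run the other way, every sign below turns. Each array's median was subtracted, so values are centred log ratios, and a fold is given for base 10 and for base 2. Values existed for 5582, 5682 and 4287 probes on arrays 1, 2 and 3, and the 4250 probes with a value on all 3 arrays were tested with limma. At an adjusted p of 0.05, 11 of these passed (0.259%), 5 higher and 6 lower. Without centring 8 were higher and 16 lower, and with any 1 array left out 0 passed. All 8 collecting duct markers looked up had a value on every array, but no intensities were used here, so their level is not known. Marker ratios differed between cell types by as much as the members' ratios do. The 9 collecting duct probes had means from 0.00667 to 0.487 (median 0.13). The highest was that of Hsd11b2, which passed the test itself (limma adjusted p = 0.0217). Aqp2 read 0.11, 0.26 and 0.14 on arrays 1, 2 and 3, and Aqp3 read −0.02, 0.06 and −0.02. These signs, too, rest on the assumed direction. The thin limb marker Aqp1 stood at −0.187, the thick limb marker Umod at −0.177 and macrophage markers Itgam and Cd14 at −0.387 and 0. The arrays were uneven for Itgam (−0.55, −0.56 and −0.05) and for Umod (−0.10, −0.04 and −0.39). Among probes on all arrays, proximal tubule markers ran from 0.06 to 0.157 and intercalated cell markers from 0.0133 to 0.147. Fibroblast markers ran from −0.08 to 0.0967, and endothelium and podocyte markers stood at −0.00667 and 0.02. Probes of Cubn (proximal tubule), Slc26a4 and Slc4a1 (intercalated) that were empty on array 3 read lower, at −0.29, −0.225 and −0.195. The part of cell makeup in the members' ratios was not tested, and in bulk RNA fewer cells of a type and less RNA per cell cannot be told apart. The number of arrays limits the precision.

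None of the transcripts of the lithium targets or of the beta-catenin branch passed the test. Of the 7 probes, 5 had a value on all 3 arrays, and limma with Benjamini-Hochberg adjustment over 4250 probes called 0 of these 5. At an unadjusted p of 0.05, 2 of the 5 passed, Wnt4 lower and Ctnnb1 higher. Of all probes 17.3% did so, 7.11% lower and 10.2% higher. The unadjusted p of Ctnnb1 was 0.0554 without centring and 0.0999 with block-wise centring, so its pass depends on the centring. A single sign on all 3 arrays was found for 3 of the 5, against 38.4% of all probes. Of these, Ctnnb1 was above 0 on every array, as were 24.8% of all probes, and Wnt4 and an Impa1 probe were below 0 on every array, as were 13.6%. A single alternative of 11, array weights, which rested mainly on array 1 and called 1252 of all probes, passed Gsk3b, Ctnnb1 and Wnt4. Over the 11 alternatives the adjusted p ran from 0.0357 to 0.938 for Gsk3b, from 0.0365 to 0.744 for Ctnnb1 and from 0.0138 to 0.744 for Wnt4. An exact sign-flip test of 1 probe on 3 arrays cannot go below p = 0.25.

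**Figure D1:**
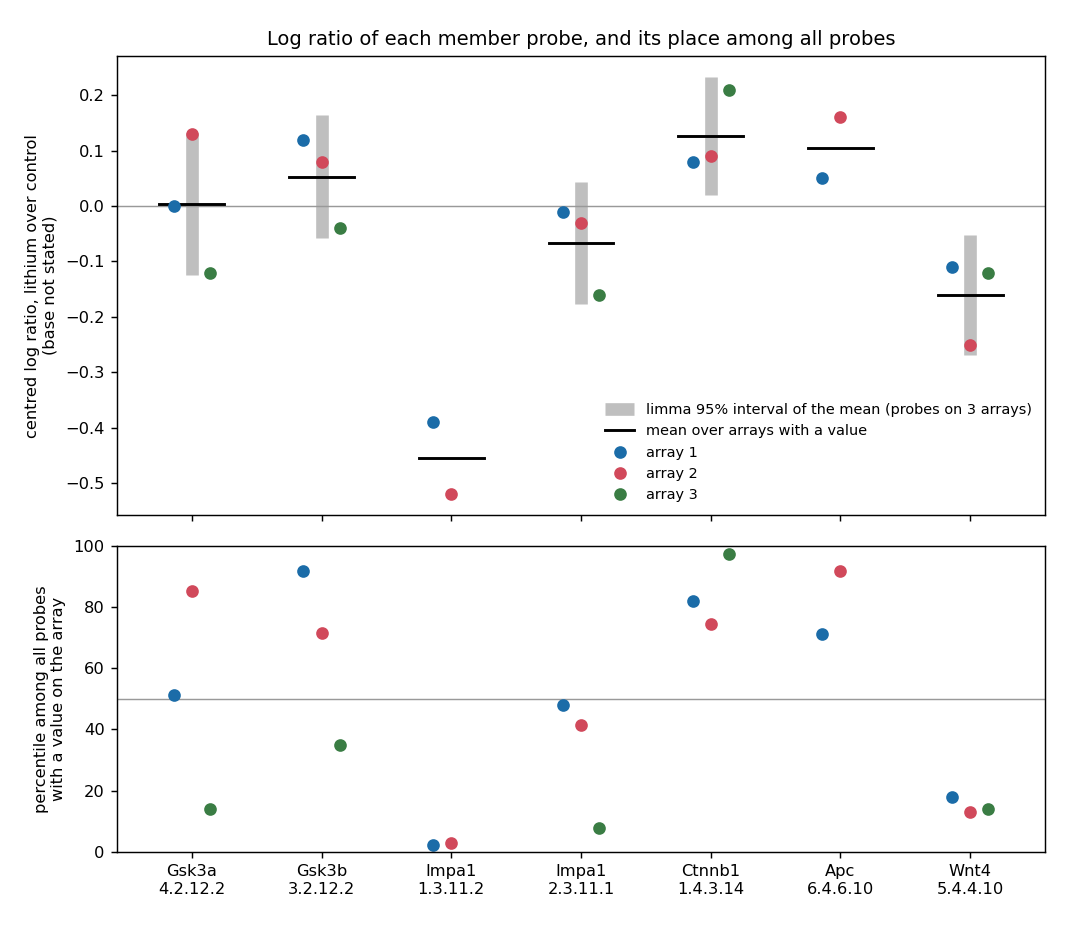
The upper panel plots the centred log ratio (y axis, base not stated) of the 7 member probes (x axis) on arrays 1, 2 and 3, with the mean as a black line and limma's 95% interval as a grey bar for the 5 probes on all arrays. The lower panel plots the percentile of the same values among all probes of that array. The Impa1 probe 1.3.11.2 lies far below the others at −0.39 and −0.52, and the Gsk3a points lie on both sides of the median.

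Both kinase isoforms had mean ratios within 0.06 of 0, and their arrays did not share a sign. Gsk3b read 0.12, 0.08 and −0.04 on arrays 1, 2 and 3, so 2 arrays lay above 0 and array 3 below. Its mean was 0.0533 ± 0.0833 (SD, n = 3; limma adjusted p = 0.596), equal to 1.13-fold (base 10) or 1.04-fold (base 2). Without array 1 the mean was 0.0200 and without array 3 it was 0.10. The 95% interval of this mean ran from −0.0567 to 0.163, so that a ratio from 0.878 to 1.46 in base 10, or from 0.961 to 1.12 in base 2, lies within it. Gsk3a read 0, 0.13 and −0.12, so its arrays spread more widely than those of Gsk3b. Its mean was 0.00333 ± 0.125 (SD, n = 3; limma adjusted p = 0.978), with an interval from −0.125 to 0.132. In base 10 this covers ratios from 0.75 to 1.35, and in base 2 from 0.917 to 1.10. The sign of the Gsk3a mean turned under 5 of 11 alternatives, among them no centring (−0.0167), so it has no direction. Its SD was larger than that of 84.1% of the tested probes.

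Averaged over the arrays, the isoforms differed by less than the spread of that difference. Gsk3a minus Gsk3b was −0.12, 0.05 and −0.08 on the 3 arrays, a mean of −0.0500 ± 0.0889 (SD, n = 3; exact sign-flip p = 0.50). Both isoforms were below the median on array 3 and at or above it on arrays 1 and 2. Gsk3a stood at the 51.2, 85.4 and 13.9 percentile of arrays 1, 2 and 3, and Gsk3b at the 91.6, 71.6 and 35.0 percentile.

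Impa1, the inositol monophosphatase gene, was measured by 2 probes that disagreed in size. Probe 1.3.11.2 read −0.39 and −0.52 on arrays 1 and 2 and had no value on array 3. These values stood at the 2.08 and 2.88 percentile, the lowest of all members on both arrays. Its mean over the 2 arrays was −0.455 ± 0.0919 (SD, n = 2), meaning 0.351 of the control (base 10) or 0.729 of it (base 2). The main fit did not test it. With probes on at least 2 arrays admitted, its limma adjusted p was 0.0654, and over 3 alternatives that tested it or the gene's average the value ran from 0.0654 to 0.289.

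Probe 2.3.11.1 of the same gene read −0.01, −0.03 and −0.16, near the median on arrays 1 and 2 and clearly below it on array 3 alone. Its mean was −0.0667 ± 0.0814 (SD, n = 3; limma adjusted p = 0.50), with a 95% interval from −0.176 to 0.0427. Without array 3 its mean was −0.0200. The first probe minus the second was −0.38 on array 1 and −0.49 on array 2. Averaging the probes per array gave −0.212 with a limma adjusted p of 0.105, a value that rests on both probes on arrays 1 and 2 and on the second alone on array 3.

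Over all genes with several probes, differences as large as that of Impa1, a limit taken from its own values, were uncommon. They made up a larger share where 1 probe of the pair was empty on array 3. Over 1257 pairs of probes from 441 genes with values on arrays 1 and 2, the median size of the difference was 0.0700 on array 1 and 0.10 on array 2. In 19 pairs (1.51%), Impa1 included, the probes were at least as far apart as those of Impa1 on both arrays and with 1 sign on both. By gene this is 16 of 441 (3.63%). Of the pairs, 495 came from 6 genes with 13 to 15 probes each, and without these, a setting chosen after seeing the data, it is 2.49% of 762 pairs. Of pairs in which 1 probe was empty on array 3, as for Impa1, 14 of 295 (4.75%) were that far apart, against 2 of 901 (0.222%) where both had a value there. Without those 6 genes the shares are 5.53% and 0.443%. The empty probe was the lower one on arrays 1 and 2 in 164 of the 295 pairs. Among all probes empty on array 3, the median was −0.0800 on array 1 and −0.180 on array 2, whereas probes with a value there had medians of 0.0100 and 0.0400. Impa1 probe 1.3.11.2 was low even among the empty ones, of which 7.37% on array 1 and 9.53% on array 2 were lower. What part of its ratio goes with the missing value on array 3 was not tested.

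**Figure D2:**
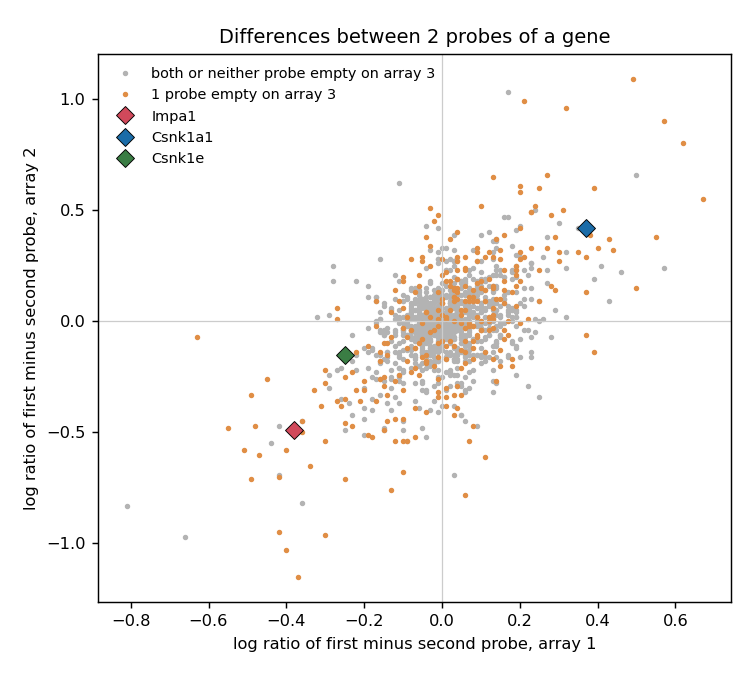
Each point is a pair of probes of 1 gene, with the difference of their log ratios on array 1 (x axis) and on array 2 (y axis), in orange where 1 probe was empty on array 3. The Impa1 pair lies at −0.38 and −0.49, the Csnk1a1 pair at 0.37 and 0.42 and the Csnk1e pair at −0.25 and −0.15, outside the dense centre.

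Ctnnb1, the beta-catenin gene, lay above the median on every array. Its probe read 0.08, 0.09 and 0.21, and array 3 was the highest, at the 97.4 percentile of that array. The mean was 0.127 ± 0.0723 (SD, n = 3; limma unadjusted p = 0.0254, adjusted p = 0.229), equal to 1.34-fold (base 10) or 1.09-fold (base 2). The 95% interval ran from 0.0206 to 0.233, and from −0.00318 to 0.216 without centring. Leaving out any 1 array also gave an interval that took in 0.

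The block that the ID of the Ctnnb1 probe may give was high on arrays 1 and 3 but not on array 2. No source used here states the layout of the array. Read as a block, the first 2 numbers of the probe IDs give 32 blocks of 180 spots, and Ctnnb1 falls in block 1.4, whose median was 0.0700, −0.0250 and 0.120 on arrays 1, 2 and 3. No block had a higher median on array 1 or on array 3. With the median of its own block subtracted, Ctnnb1 read 0.01, 0.115 and 0.09, a mean of 0.0717 ± 0.0548 (SD, n = 3; limma adjusted p = 0.325). Subtraction thus lowered the mean by more than 1.5 times and kept it above 0 on all arrays. The block held 5 other probes of the pathway lists. All 6 were above 0 on array 3, from 0.02 to 0.23, where the block's own median was 0.120. The share above 0 over all probes of the block was not counted. On array 2 the 6 ran from −0.30 to 0.16, without a common sign. After subtraction 4 of the 6 were above 0 on array 3. For the other members the block median changed the mean by 0.03 or less. What part of the Ctnnb1 ratio goes with position was not tested.

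**Figure D3:**
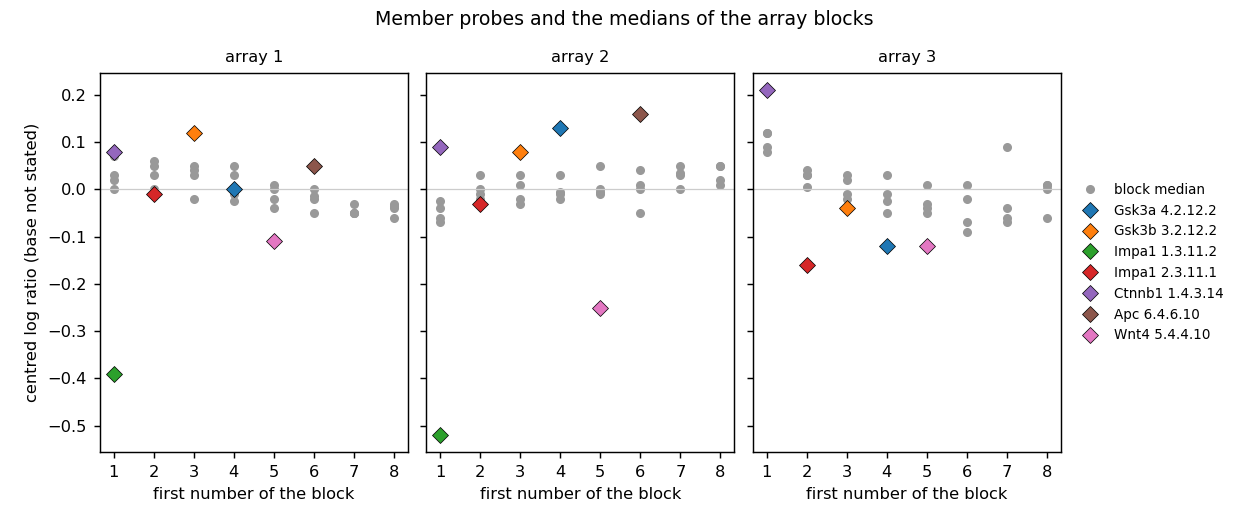
Grey points are the medians of the 32 blocks read from the probe IDs, on each array (y axis, centred log ratio with base not stated) by the first number of the block (x axis), and diamonds are the member probes. On array 3 the blocks of the first group have medians from 0.08 to 0.12, and the Ctnnb1 probe in that group reads 0.21.

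Apc, the scaffold of the destruction complex, was measured on 2 arrays only. Its probe read 0.05 and 0.16 on arrays 1 and 2, above the median on both, and was empty on array 3. The mean was 0.105 ± 0.0778 (SD, n = 2), 1.27-fold (base 10) or 1.07-fold (base 2). With probes on at least 2 arrays admitted, its limma adjusted p was 0.369, and it was 0.402 on arrays 1 and 2 alone. Unlike Impa1 probe 1.3.11.2, it was high among the probes empty on array 3, of which 83.8% on array 1 and 98.4% on array 2 were lower.

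Wnt4, a secreted Wnt ligand needed for kidney tubule formation, lay below the median on every array. Its probe read −0.11, −0.25 and −0.12, with array 2 the lowest and arrays 1 and 3 close together. The mean was −0.160 ± 0.0781 (SD, n = 3; limma unadjusted p = 0.00976, adjusted p = 0.186), meaning 0.692 of the control (base 10) or 0.895 of it (base 2). Its 95% interval ran from −0.268 to −0.0519 and took in 0 without array 1 or without array 3. Of the tested probes 3.67% had a lower mean. The mean was the lowest of the 5 tested members and ranged from −0.185 without array 1 to −0.115 without array 2. Subtracting its block's median left it at −0.15.

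Ctnnb1 lay above Wnt4 on every array. Ctnnb1 minus Wnt4 was 0.19, 0.34 and 0.33, with a mean of 0.287 ± 0.0839 (SD, n = 3; exact sign-flip p = 0.25, the smallest that 3 arrays allow). Gsk3b minus Impa1 probe 2.3.11.1 was nearly constant at 0.13, 0.11 and 0.12 (mean 0.120 ± 0.0100, exact sign-flip p = 0.25). These were 2 of 21 pairs of member probes, chosen after their values were seen, and an exact test of none of them can reach 0.05.

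Other probes with like patterns were many, as 3 values allow. Likeness was taken as the Euclidean distance between the 3 centred ratios, over 3825 named probes. Gsk3a was nearest to Mgat5 and Gria1, at distances of 0.0141 and 0.0173, and 57 probes lay within 0.05 of it. Gsk3b was nearest to Adam18 and Tpm3, with 40 probes within that distance. The values of Impa1 probe 2.3.11.1 were the same as those of Ncs1, at a distance of 0, followed by Srm at 0.0245. Ctnnb1 was nearest to Rpl19 at 0.0141 and Prdm4 at 0.0173, whose probes both lie in block 1.1, the other block with a median of 0.120 on array 3. Wnt4 had the fewest close probes, 7 within 0.05, led by Ghr at 0.0283 and Apex1 at 0.0300.

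The other genes of these pathways were taken from 7 lists with 136 symbols. Of these, 62 had a probe, and 63 probes of 57 genes were measured on all 3 arrays. None of the 63 passed the limma adjusted p of 0.05, against 0.259% of all probes. At an unadjusted p of 0.05, 2 were higher and 4 lower, against 10.2% higher and 7.11% lower among all probes. Their median ratio was 0.0200, beside 0.0133 for all tested probes, and 28.6% had a single sign on all arrays, against 38.4%. For the counts above and below 0 that follow, 57.1% of all tested probes had a mean above 0 and 41.0% below.

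The probes listed for other lithium-sensitive enzymes and for inositol transport and metabolism lay near 0. Of 8 probes, 4 had a mean above 0 and 4 below, with a median of 0.00500. Pgm1, a phosphoglucomutase, had the highest mean at 0.0867 ± 0.0896 (SD, n = 3). The lowest was that of the bisphosphate nucleotidase gene Bpnt1, which read 0.07, −0.30 and 0.08. Its array 2 thus stood apart from the other arrays, and its mean was −0.0500 ± 0.217. Slc5a3, which imports myo-inositol, read 0.03, 0.05 and −0.02. Impa2 and Inpp1, which encode further lithium-sensitive phosphatases, were looked up but had no probe with that single symbol. No ratio is therefore given for them.

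Upstream of the kinase, 5 of 7 probes had a mean above 0, 1 was at 0 and 1 below, and the median was 0.0200. Akt kinases phosphorylate and thereby inhibit both isoforms. Akt2 read 0.08, 0.18 and 0.03, above 0 on all arrays, with a mean of 0.0967 ± 0.0764 (SD, n = 3; limma adjusted p = 0.334), whereas Akt1 stood at 0.00667 ± 0.0462 (adjusted p = 0.957). The lowest was the phosphoinositide 3-kinase subunit gene Pik3cb at −0.00667.

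Among substrates of the kinase, Gys2, the liver form of glycogen synthase, had the lowest ratio. It read −0.32, −0.45 and −0.16, below 0 on every array, with a mean of −0.310 ± 0.145 (SD, n = 3; limma adjusted p = 0.101). It passed under 3 of the 10 alternatives that fitted single probes. Its limma adjusted p there ran from 0.000873 with array weights to 0.744 without array 1. With probes averaged by gene, no list probe passed. The 3 probes of Map1b, a microtubule-associated protein gene, had means of −0.0367, −0.237 and −0.103. The highest of the 11 probes was that of Acly, ATP citrate lyase, at 0.0533, and 5 lay above 0 and 6 below.

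The other Wnt ligands, receptors and antagonists had a median of 0.00500 over 8 probes, 5 above 0 and 3 below. Wnt5a, a ligand that mainly acts without beta-catenin, read −0.18, −0.02 and −0.10, below 0 on all arrays like Wnt4. Its mean was −0.10 ± 0.0800 (SD, n = 3; limma adjusted p = 0.324). The highest was the receptor gene Fzd2 at 0.0467 ± 0.0764.

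The destruction complex and its relay held the probe nearest to the threshold. Csnk1a1 encodes casein kinase 1 alpha, which primes beta-catenin for the kinase. Its probe 6.4.10.12 read −0.28, −0.26 and −0.26, the same within 0.02 on all arrays, with a mean of −0.267 ± 0.0115 (SD, n = 3; limma adjusted p = 0.0515). It passed under 6 of the 10 alternatives that fitted single probes. These were no centring (limma adjusted p = 0.0341), centring on probes with all values (0.0410) and block-wise centring (0.0361). The others were equal spread (0.0107), a robust prior (0.00273) and array weights (0.000399). It did not pass with any 1 array left out, where the adjusted p reached 0.744, or with probes on at least 2 arrays (0.0566). With probes averaged by gene, which joins both Csnk1a1 probes, no list probe passed. The other Csnk1a1 probe, 1.4.11.1, lies in the same block as Ctnnb1 and went the opposite way, with 0.09, 0.16 and 0.02. The probes differed by 0.37, 0.42 and 0.28, so the gene has no single direction here. Csnk1e, casein kinase 1 epsilon, also had probes on both sides of 0, with means of −0.0400 and 0.147. Axin1, the other scaffold of the complex, stood at 0.0467 ± 0.0709 (SD, n = 3; adjusted p = 0.633). Axin2, of the same list, read 0.07, 0.12 and 0.03, with a mean of 0.0733 ± 0.0451 (limma adjusted p = 0.41). It was counted here only, and not with the target genes below. Over the 15 probes the median was 0.0433, with 10 above 0 and 5 below.

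Nuclear partners of beta-catenin and known target genes had a median of 0.0117 over the 10 probes measured on all arrays, and of −0.0117 over all 14 probes with any value, a setting chosen after seeing the data. Of the 10, 5 had a mean above 0, 4 below and 1 at 0. Ccnd1, the cyclin D1 gene and a classical target, read 0.23, −0.03 and 0.23, so array 2 stood apart. Its mean was 0.143 ± 0.15 (SD, n = 3; limma adjusted p = 0.281), and since it lies in block 1.4, subtracting that block's median lowered it to 0.0883. Myc, another target, went the other way with 0.01, −0.33 and −0.08 (mean −0.133 ± 0.176, adjusted p = 0.357). Ppard stood at 0.0833 ± 0.119 and Fosl1 at 0.0433 ± 0.0551. The target Cd44, a hyaluronan receptor, had 5 probes, of which 2 were measured on all arrays, with means of −0.200 and 0.0233. The other 3 were empty on array 3 and lay lower, at −0.60 and −0.305 over arrays 1 and 2 and at −0.63 on array 2 alone. Mmp7, a matrix protease gene also empty on array 3, read −0.41 and −0.14. These 4 probes of the list lack a value on array 3, where, as above, empty probes ran low on the other arrays, and what part of their ratios goes with that was not tested.

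At adherens junctions, where beta-catenin binds cadherins, 4 probes had a median of 0.0300. Cdh1, the E-cadherin gene, read 0.14, 0.23 and −0.02, with a mean of 0.117 ± 0.127 (SD, n = 3; limma adjusted p = 0.333). Jup, the gene of the beta-catenin relative plakoglobin, stood at −0.0867 ± 0.0896 (adjusted p = 0.399).

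**Figure D4:**
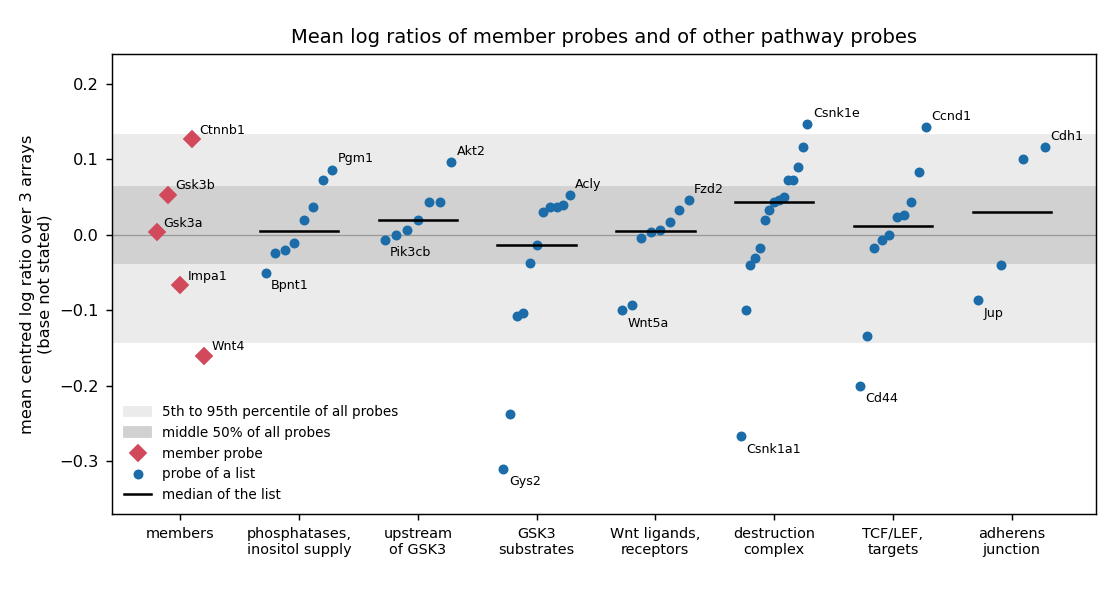
Points are the mean centred log ratios over 3 arrays (y axis, base not stated) of the 5 tested member probes and of the probes of the 7 lists (x axis), with each list's median as a black line and the spread of all 4250 probes in grey. The medians lie between −0.0133 and 0.0433, and the Gys2 and Csnk1a1 probes lie lowest.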

How the data were processed

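The authors deposited log ratios with 2 decimals for 5760 probes on 3 arrays. No source used here states the scanner, background correction, normalization, filter or log base, and the channels were read per the labels. Column medians as deposited were −0.02, −0.04 and 0. Symbols came from the platform's public annotation, in which 5064 probes had 1 symbol, 9 several and 687 none. The gene IDs of all 7 member probes carried the same symbol in a RefSeq gene table of assembly GRCr8.

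Each array's median was subtracted. Single probes with a value on all 3 arrays were fitted with limma 3.58.1 in R 4.3.3 (intercept-only lmFit, eBayes, two-sided, Benjamini-Hochberg over 4250 probes). Sign-flip tests were exact and two-sided. Probes were not averaged, because averaging mixes probes where a value is missing. Run on simulated data for 4250 probes, 200 of them shifted, the fit made 10 false calls. It recovered 13.4%, 88.1% and 100% of probes shifted by 0.15, 0.30 and 0.50. The simulated noise was independent and normal. How many pass depends on how many probes change, so these shares need not hold for the real data, where 11 passed. Member genes and lists were chosen with earlier results of these data known. Named from each list were its lowest and highest probe and Ccnd1, Myc, Akt1, Impa2, Inpp1, Slc5a3, Cdh1 and Axin1. Map1b, the second probes of Csnk1a1 and Csnk1e, the other probes of Cd44, Mmp7, Axin2, Ppard and Fosl1 were named after their values were seen. Alternatives were other centrings (none, on probes with all values, by block), equal spread, probes on at least 2 arrays, probes averaged by gene, a robust prior, array weights, each array left out and an adjusted p of 0.10. Figures were drawn with matplotlib 3.10.9, and tables were handled with pandas 2.3.3 under Python 3.11.15.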

Additional observations from a re-analysis of the deposited data

How the results depend on the processing

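No member probe passed under 10 of 11 alternative fits, or in the main fit at an adjusted p of 0.10. The main fit did not test Impa1 probe 1.3.11.2, whose limma adjusted p was 0.0654 with probes on at least 2 arrays. With array weights, which gave array 1 a weight of 4.69 against 0.358 and 0.595, 3 member probes passed, Gsk3b at 0.101, Ctnnb1 at 0.0943 and Wnt4 at −0.120. Of all probes 1252 then passed, and 14 of the pathway lists. Against 11 of all probes in the main setting, 24 passed without centring, 20 centred on probes with all values, 22 with block-wise centring, 115 at equal spread, 43 with probes on at least 2 arrays, 17 averaged by gene, 135 with a robust prior and 39 at an adjusted p of 0.10. With an array left out 0 passed each time, on 1 residual degree of freedom, although an unadjusted p of 0.05 was passed by 185, 668 and 791 probes without arrays 1, 2 and 3. Against 0 list probes, 1 passed without centring, with either other centring and at an adjusted p of 0.10, and 3 passed at equal spread and with a robust prior. The mean of Gsk3a turned sign to −0.0167 without centring, −0.0133 centred on probes with all values, −0.0109 at equal spread and −0.00440 with array weights, and ran from −0.0600 to 0.0650 with an array left out. Averaging the Impa1 probes moved probe 1.3.11.2 from −0.455 to −0.212, since the second probe enters. The cause of the other changes was not tested. No paired analysis was possible because the arrays form 1 group of direct comparisons.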
